A study of Mus musculus with 32 samples.

Results

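Toll-like receptors are membrane proteins of innate immunity that recognise conserved microbial molecules and signal through adaptors to NF-kB and interferon regulatory factors. Some sit at the cell surface and bind bacterial lipids or protein. Others sit in endosomes and bind nucleic acids. Myeloid cells use most of the family, and plasmacytoid dendritic cells are known for the endosomal receptors of RNA and DNA. The RNA-binding protein IGF2BP3 binds RNA in many transcripts and is known as an oncofetal protein.

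The 10 receptors described here are Tlr1, Tlr2, Tlr3, Tlr4, Tlr5, Tlr6, Tlr7, Tlr8, Tlr9 and Tlr13, out of 23620 genes listed for both cell types. They were selected on their symbols, in a proposal made with the levels and IGF2BP3 peaks of these data known, so every value below is a description with no test. Tlr11 and Tlr12, the other mouse receptors of the family in the tables, were not members. Their mean normalized counts were 4.70 and 138 in Lin- cells and 1.87 and 5.37 in CD11b+ cells, and neither had a peak.

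The series held 32 libraries from C57BL/6 mouse cells carrying the MLL-Af4 fusion, which was introduced by the MSCV-MLL-FLAG-Af4 retrovirus in all groups. Lin- cells were bone marrow cells depleted of mature lineages, transduced, drug selected and cultured with cytokines. CD11b+ cells were taken with a CD11b antibody from the splenic tumors of leukemic mice, but whether the CD11b+ cells used for eCLIP came from spleen or bone marrow was not settled by the sources used here. Each cell type had 3 WT/MLL-Af4 and 3 I3KO/MLL-Af4 RNA-seq libraries, where I3KO is a germline deletion of Igf2bp3 obtained through leaky Vav1-Cre. IGF2BP3 eCLIP, which crosslinks a protein to RNA with UV and sequences the RNA recovered with an antibody, gave 6 Lin- libraries (3 biological, 3 technical) and 4 CD11b+ libraries (2 biological, 2 technical). The labels gave no genotype for them and the study's own descriptions of its results place eCLIP in WT/MLL-Af4 cells. Each eCLIP library had a size-matched input (smInput) that served as the background of the assay.

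Peak lists held between 4040 and 10042 filtered peaks in Lin- libraries and between 7085 and 10054 in CD11b+ libraries, so the peak totals of the groups overlapped. Read depth per library was not given in the files. The RNA-seq tables gave 1 mean normalized count per gene, pooled by the authors over both genotypes, with no spread. Igf2bp3 was listed at 2041 in Lin- and 1355 in CD11b+ cells, and a pooled mean cannot check its loss in I3KO/MLL-Af4. Of the progenitor markers, Kit (6974 in Lin- and 673 in CD11b+ cells), Cd34 (9052 and 1291) and Flt3 (9396 and 390) were lower in the CD11b+ table, and Mpo was high in both (101212 and 84102). Markers of myeloid cells summed to 21245 over the 5 listed in Lin- cells and to 62712 over the 6 listed in CD11b+ cells. Among these, Itgam, which encodes CD11b itself, was listed at a mean of 17.0 in the CD11b+ table, below the 234 of Tlr5, although the gene carried 11 merged eCLIP regions found over all 4 CD11b+ libraries. Itgam was not listed under that symbol for Lin- cells, so it was not analysed there. Why Itgam was listed so low in cells taken with a CD11b antibody was not tested. The means of single receptors were not checked against another measure either, which limits their percentiles, orders and bands below. The other myeloid markers, Itgb2, Csf1r, Cd68, Ly6c2 and Adgre1, ranged from 2474 to 25977 in CD11b+ cells.

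IGF2BP3 peaks fell on 5 of the 10 receptors in CD11b+ cells and on 0 of 10 in Lin- cells. Over all listed genes, 25.6% in CD11b+ and 26.5% in Lin- cells had at least 1 filtered peak. Among genes listed at 100 normalized counts or more these shares were 47.9% and 51.9%. The bound transcripts were those of Tlr1, Tlr2, Tlr5, Tlr7 and Tlr13. They carried 10 peaks in all, which merged into 8 regions where peaks overlapping by at least 1 base were joined. One of these regions, in an intron of Tlr1, was found in 3 of the 4 CD11b+ libraries, and each of the other 7 was found in 1 library.

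The regions found on CD11b+ receptors are printed as RNA-strand DNA letters of the mouse genome (RefSeq GRCm38.p6, the build called mm10 in the files), in the 5′ to 3′ direction. They are shown because the receptor peaks rest on these few stretches. In the first pair, capitals mark runs of CACACA or ACACAC, the CA-rich letters searched here.

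Tlr1, chr5:64930660-64930737, minus strand: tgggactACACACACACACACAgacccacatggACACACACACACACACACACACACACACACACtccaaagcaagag
Tlr13, chrX:106150542-106150598, plus strand: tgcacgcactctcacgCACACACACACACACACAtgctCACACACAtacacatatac

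The regions with the smallest deposited peak values, both on Tlr5, and those on Tlr7 and near the first coding exon of Tlr13 hold no such run and are in lower case throughout.

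Tlr5, chr1:182962340-182962384, plus strand: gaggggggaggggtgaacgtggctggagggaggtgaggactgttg
Tlr5, chr1:182962698-182962750, plus strand: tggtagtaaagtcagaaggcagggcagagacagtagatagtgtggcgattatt
Tlr7, chrX:167324862-167324911, minus strand: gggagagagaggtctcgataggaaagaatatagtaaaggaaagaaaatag
Tlr13, chrX:106147996-106148040, plus strand: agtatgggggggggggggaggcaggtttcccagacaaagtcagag

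The region on Tlr2 spans the end of an exon. In it, capitals mark the 7 exonic bases of the 5′ untranslated region and lower case the 12 intronic bases that follow.

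Tlr2, chr3:83840877-83840895, minus strand: ACAAAGCgtgagtggagtc

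The remaining Tlr7 region, chrX:167329189-167329193, was 5 bases long, too short to print a motif from.

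Among the surface receptors, Tlr1, which pairs with Tlr2 to bind triacylated bacterial lipoproteins, had the most repeated peak. Its 3 peaks came from biological libraries 1 and 2 and technical library 4, with deposited values of 0.00315, 0.00437 and 0.000432. They shared 71 bases. CD11b+ library 3 and all 6 Lin- libraries had no peak there. The labels do not say which biological library a technical library repeats, so the 3 peaks stand for 2 biological samples at most. The gene lies on chromosome 5 at 64924679 to 64933563, and the region is intronic, 3466 bases before the annotated coding start and 475 bases from the nearest splice site, a 3′ splice site. Its longest run of alternating C and A was 32 bases, and 94.9% of the region was masked as repeat or low complexity in the RefSeq genome. How reads in such repeats were placed was not tested.

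Tlr2, the shared partner of Tlr1 and Tlr6, had 1 peak of 19 bases, in biological library 1, with a deposited value of 0.0233. Its centre lay 3 bases from a 5′ splice site. The other 3 CD11b+ libraries had none. Tlr6, which pairs with Tlr2 to bind diacylated lipoproteins and lies next to Tlr1 on chromosome 5 (64952031 to 64960097), had no peak in any of the 10 libraries. Tlr1 and Tlr6 have similar coding sequences, and how the counting treated reads that match both is not given in the sources used here. Their values are uncertain to that extent.

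Tlr4, the receptor of bacterial lipopolysaccharide, had no peak in any library although its gene spans 102.7 kb, the widest of the 10, of which 94.7% is intronic. Tlr5, the receptor of flagellin, had 2 peaks at 2 places of the same gene, 313 bases apart. The first was in biological library 1, with a deposited value of 1.73e-05, the smallest of the 10 peaks. The second was in technical library 3, with 9.07e-05. Both lay within the gene's long intron before the coding start, 10073 and 9711 bases from it. No library had both.

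Of the endosomal receptors, Tlr7, which binds single-stranded RNA, had 2 peaks, both in biological library 1, with deposited values of 0.0237 and 0.0236. They lay 5672 and 1367 bases from the 5′ end of the gene. The other 3 CD11b+ libraries had none. Tlr13, which recognises a bacterial ribosomal RNA, had 1 peak in biological library 1 (0.0360) and 1 in biological library 2 (0.0388), at different places of its intron 405 and 2957 bases from the nearest splice site, a 5′ splice site. The CA-rich region, from library 2, had its longest alternating run at 18 bases and was masked over 100% of its length. Masking was not limited to CA-rich regions. It covered 60% of the other Tlr13 region, 72% of the 50-base Tlr7 region and 37.8% of the first Tlr5 region. The Tlr2 region, the second Tlr5 region and the 5-base Tlr7 region were masked over 0% of their length. Tlr3 (double-stranded RNA), Tlr8 (single-stranded RNA) and Tlr9 (unmethylated CpG DNA) had no peak in any library. Tlr9 is the shortest gene of the set, at 4.29 kb, of which 18.9% is intronic.

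**Figure D1:**
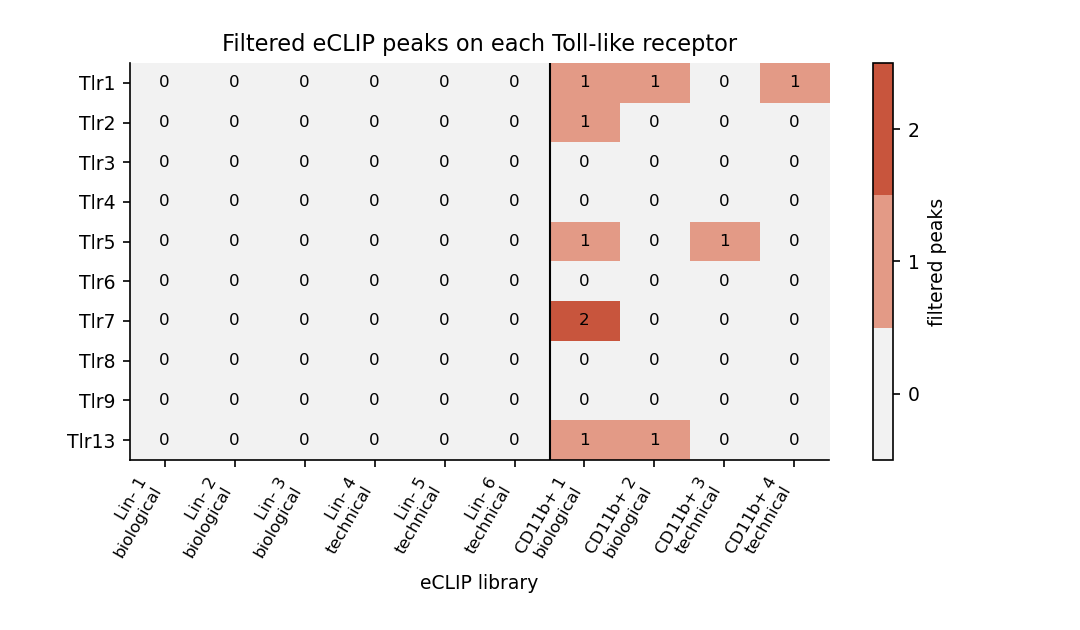
Number of filtered IGF2BP3 eCLIP peaks on each receptor (vertical axis) in each library (horizontal axis, cell type, replicate number and kind). All 6 Lin- columns are at 0, and CD11b+ library 1 holds 6 of the 10 peaks.

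The libraries contributed unequally. CD11b+ library 1 held 6 member peaks over 5 receptors, library 2 held 2 peaks, and libraries 3 and 4 held 1 each, so that library 1 stood above the other 3. Library 1 did not have the longest peak list, at 8521 against 10054 in library 2. Without library 1 the count fell to 3 receptors, Tlr1, Tlr5 and Tlr13, and to 3 regions. With a region required in at least 2 libraries, Tlr1 alone was left. At a deposited value below 0.001, 2 receptors were left, Tlr1 and Tlr5.

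The input libraries held no peak on a receptor. They had between 217 and 1808 peaks each in Lin- and between 1381 and 1885 in CD11b+ cells, and 0 lay on a member. The lists before the smInput filter held the same 10 peaks in CD11b+ cells and 0 in Lin- cells, so the filter removed none. Assignment by position and strand, whatever the gene ID of a peak, gave the same 5 receptors and again 8 regions.

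The peaks were small. The last number of each peak's name, at the place where CLIPper is known to write the reads of a peak, ran from 3 to 9 over the 10 member peaks with a median of 4.5. The files do not label it. Over all CD11b+ filtered peaks the median was 7 and the highest 2530, and 61.9% were at 9 or below. In length, member peaks had a median of 51.5 bases, beside 51 over all CD11b+ filtered peaks.

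The count of receptors with a peak was read against other genes. In CD11b+ cells 25.6% of all listed genes had at least 1 filtered peak. The share was 37.1% among genes listed at 10 normalized counts or more and 47.9% among those listed at 100 or more. The receptors other than Tlr3 were above both limits, and 5 of these 9 had a peak, close to the last share. Among genes with means in the receptors' own range the share was 25.2%, and 16.2% where the gene span was also at most 30 kb. That range runs from 3.67 to 1401 because Tlr3 is listed so low, and the span limit leaves out Tlr4. The other 9 receptors lay in the bands of 100 to 300, 300 to 1000 and 1000 to 3000 normalized counts. There the shares were 21.6%, 43.4% and 66.9%. A region in at least 2 libraries was carried by 13.7% of listed genes in CD11b+ cells and by 13.8% in Lin- cells, and by 1 receptor and 0 receptors.

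In Lin- cells the shares were 26.5% of all listed genes, 39.8% at 10 normalized counts or more and 51.9% at 100 or more, and 23.0% within the receptors' range of means, or 19.9% with a span of at most 30 kb. That range runs from 14.4 to 1405, and the span limit again leaves out Tlr4. None of the 10 receptors had a peak, including the 8 listed at 100 or more. The share was higher in bands of higher level up to 10000 normalized counts in Lin- cells, and from 10 to 10000 in CD11b+ cells. Between 300 and 1000 normalized counts it was 32.9% in Lin- and 43.4% in CD11b+ cells, with 0 of 4 and 3 of 7 receptors in that band. Tlr7 in Lin- cells lay in the next band, where 69.6% of genes had a peak. As the members were proposed with these peaks known, nothing further is read from the counts.

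**Figure D2:**
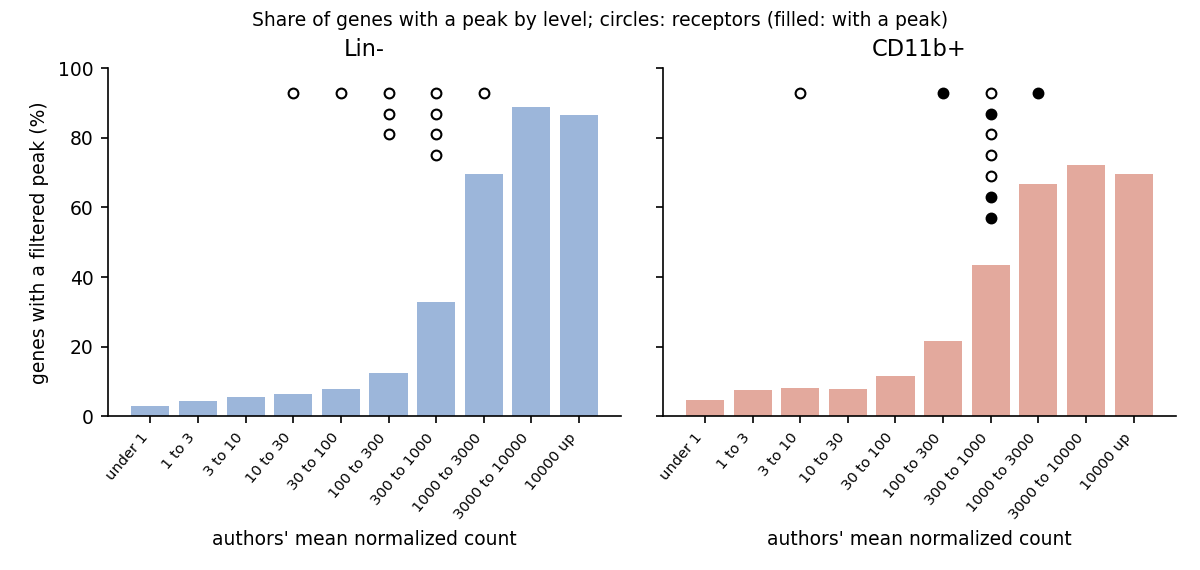
Percent of listed genes with at least 1 filtered eCLIP peak (bars) by band of the authors' mean normalized count, for Lin- (left) and CD11b+ (right) cells. Circles are the 10 receptors stacked over their band, filled where the receptor had a peak, and their height carries no value. All Lin- circles are open, and 5 of the 10 CD11b+ circles are filled.

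All 8 regions had their centre in an intron of the GENCODE M21 basic annotation, and none in the coding sequence. Over all merged regions the intronic share was 84.3% in CD11b+ cells and 78.1% in Lin- cells. In the 5 bound genes the longest coding exon lies near the 3′ end, and introns took between 45.2% (Tlr2) and 84.5% (Tlr7) of the gene span. The 4 regions of Tlr1, Tlr2 and Tlr5 lay before the first annotated coding base, and the 4 of Tlr7 and Tlr13 after it, between annotated coding exons. When any base was counted in place of the centre, the Tlr2 region was placed in the 5′ untranslated region and 7 of the 8 remained intronic.

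**Figure D3:**
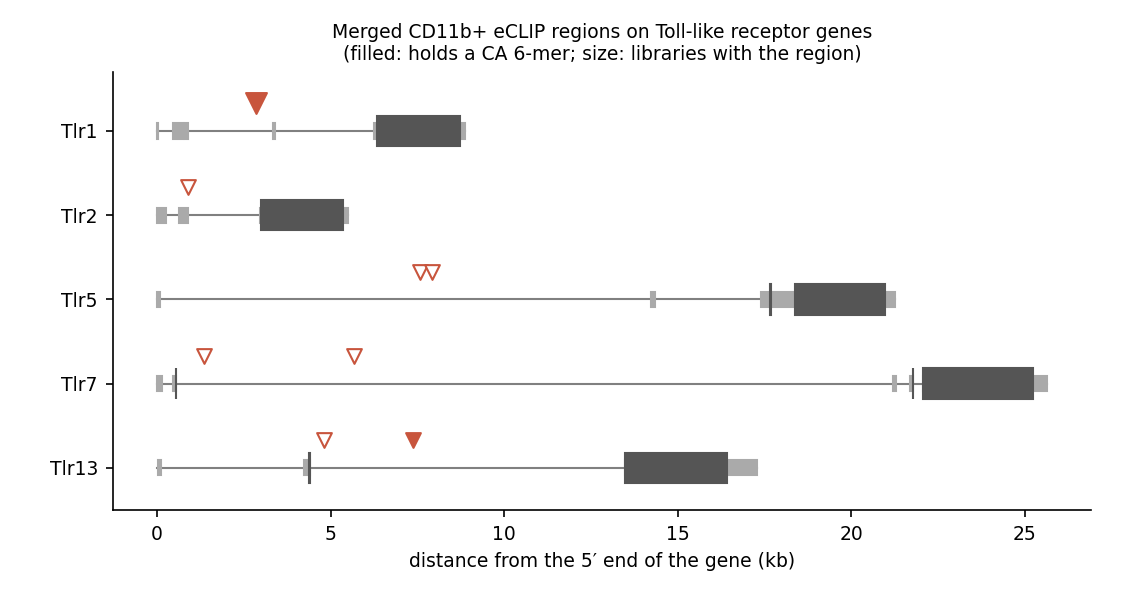
Merged CD11b+ eCLIP regions (triangles) on the 5 receptor genes with a peak, by distance in kb from the 5′ end of the gene. Tall dark boxes are coding, low grey boxes other exonic sequence and lines introns. Triangle size gives the number of libraries, and filled triangles hold a CA 6-mer. The filled triangles are on Tlr1 and Tlr13, and no triangle lies over a coding box.

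In letters, 2 of the 8 regions held CACACA or ACACAC on the RNA strand (Tlr1 and Tlr13), beside 17.0% of all CD11b+ merged regions and 8.35% of all Lin- regions. Among regions of 45 to 80 bases, these were 2 of 6 receptor regions beside 21.1% in CD11b+ cells. Without CD11b+ library 1 the share with the CA letters was 66.7% and without library 2 it was 14.3%, below that of all CD11b+ regions. With a region required in at least 2 libraries it was 100%, from the Tlr1 region alone. GGAC was in 2 of 8 (Tlr1, where a copy overlaps a CA run, and the first Tlr5 region) beside 9.98%. CATA, CATC or CATT was in 1 of 8 (Tlr13) beside 24.1%. Matches on the other strand were not counted, because the peaks are stranded. Of the 10 genes, runs of CACACA or ACACAC were densest on the RNA strand of Tlr13, with 10.4 per 10 kb of gene span, and Tlr1, with 10.1. Tlr5 followed with 9.41, and neither of its regions held such a run. They were sparsest on Tlr6, with 1.24.

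A level of RNA is the authors' mean normalized count, set by a percentile among all genes of the same table, and compared between genes only per kilobase of exon. The tables were normalized separately. They carry no spread, so neighbours in an order cannot be told apart beyond their error, and in bulk RNA fewer cells of a type and less RNA per cell cannot be told apart. Over the 10 receptors the median percentile was 64.2 in Lin- and 74.1 in CD11b+ cells.

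Per kilobase of exon, Tlr13 headed the order in CD11b+ cells with 345 normalized counts per kb, followed by Tlr1 (255), Tlr7 (205), Tlr9 (204), Tlr2 (157), Tlr6 (139), Tlr4 (112), Tlr8 (89.0), Tlr5 (57.3) and Tlr3 (0.817). The receptors with a peak were thus ranks 1, 2, 3, 5 and 9 of this order. In Lin- cells Tlr7 headed it with 354, followed by Tlr2 (186), Tlr9 (168), Tlr13 (128), Tlr4 (103), Tlr1 (74.8), Tlr8 (55.0), Tlr6 (37.0), Tlr3 (12.8) and Tlr5 (3.52).

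**Figure D4:**
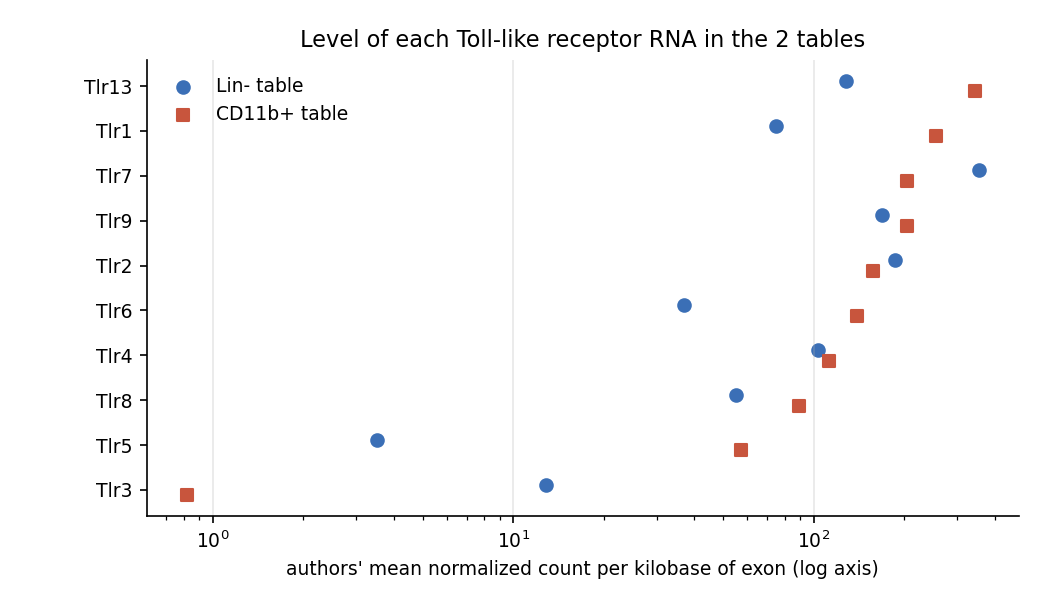
The authors' mean normalized count per kilobase of exon (horizontal log axis) for each receptor, in the Lin- table (circles) and the CD11b+ table (squares), which were normalized separately. Tlr13 is highest among the CD11b+ squares at 345 and Tlr7 among the Lin- circles at 354, and Tlr3 is the lowest square at 0.817.

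Among the surface receptors, Tlr1 had a mean normalized count of 233 in Lin- and 795 in CD11b+ cells, at percentiles 60.4 and 79.2. Tlr6 had 136 and 510, at 56.3 and 72.8. Tlr2, the partner of both, had 560 and 473, at 68.9 and 71.7. The 2 partner receptors thus stood at a higher percentile in CD11b+ cells by 18.8 and 16.4 points, and Tlr2 by 2.81 points. Tlr4 had 564 and 615, at 69.0 and 75.4. Tlr5 had 14.4 and 234, at 40.1 and 63.0, and its percentile differed by 22.9 points, more than that of any other member in the direction of CD11b+ cells.

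Among the endosomal receptors, Tlr13 had 522 in Lin- and 1401 in CD11b+ cells, at percentiles 68.1 and 87.1. Tlr8 had 189 and 305, at 58.8 and 65.9. Tlr9 had 585 and 709, at 69.3 and 77.5. Tlr3 went the other way, with 57.5 and 3.67, at 50.3 and 28.3. Tlr7 had 1405 and 810, at 81.2 and 79.5. In all, 8 of the 10 receptors stood at a higher percentile in the CD11b+ table, all except Tlr3 and Tlr7. The share of all genes that did so was not counted, so this number has no background. The 41 other pathway genes described below also had a higher median percentile there, 86.1 beside 82.3, at a lower median mean normalized count.

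Markers of other cells differed between the same tables. Siglech and Bst2, markers of plasmacytoid dendritic cells, were at 5631 and 2039 in Lin- cells and at 74.7 and 548 in CD11b+ cells. Summed over the 2 markers this was 7670 in Lin- and 623 in CD11b+ cells. Bst2 is also made by other cells. Mean counts of Tlr2, Tlr3, Tlr7, Tlr11 and Tlr12 were higher in the Lin- table, and those of the other receptors, Tlr9 among them, were lower there. Tlr2 nevertheless stood at a lower percentile in Lin- cells, 68.9 beside 71.7, and Tlr11 was low in both, at 4.70 and 1.87. The 3 B cell markers summed to 8.03 in Lin- and 314 in CD11b+ cells and the 3 erythroid markers to 97.4 and 2365. Of the T cell markers, 2 were listed in Lin- cells (sum 2.92) and 3 in CD11b+ cells (sum 13.6). None of the markers listed was at 0. The part of these cells in the receptor levels was not tested.

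Other genes of the pathway were read in the same way. Of the 42 genes listed for the pathway, 41 were in both tables, all except Myd88, which was not analysed here. Of these, 28 had at least 1 filtered peak in Lin- cells and 34 in CD11b+ cells, 27 of them in both, 1 in Lin- cells alone and 7 in CD11b+ cells alone. The share of all genes with a peak in 1 cell type alone was not counted, so the split of 1 and 7 has no background. The 28 and 34 genes were 68.3% and 82.9% of the list, beside 26.5% and 25.6% of all listed genes. The list's median mean normalized count was 1514 in Lin- and 1280 in CD11b+ cells, above the receptors' 377 and 562. In the band of 1000 to 3000 normalized counts that holds the list's medians, 69.6% of Lin- and 66.9% of CD11b+ genes had a peak. The list's share was close to this in Lin- cells and higher in CD11b+ cells. The list's means ran from 4.62 to 19368 in Lin- and from 1.87 to 11885 in CD11b+ cells. A single band is therefore not a matched background, and gene span was not matched, so no excess is read from these shares. The list carried 91 and 100 merged regions.

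The accessory proteins of the surface receptors differed among themselves. Cd14, which hands lipopolysaccharide to the Tlr4 complex, and Ly96, which encodes the MD-2 subunit of that complex, had none in any library, at 582 and 60.4 normalized counts in Lin- and 1742 and 53.2 in CD11b+ cells. The transcripts of Tlr4, Cd14 and Ly96 thus held no peak in either cell type. In the band of Ly96, 30 to 100 normalized counts, 7.70% of Lin- and 11.6% of CD11b+ genes had one. In the band of Tlr4, which also holds Cd14 in Lin- cells, these shares were 32.9% and 43.4%. Cd14 in CD11b+ cells lay in a band with 66.9%. Cd180, a receptor related to Tlr4, had 2 merged regions in 5 of 6 Lin- libraries and 3 in 3 of 4 CD11b+ libraries, at 4710 and 767. Ly86, its partner, had 0 regions in Lin- and 1 in 2 of 4 CD11b+ libraries, at 1295 and 1822.

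Of the genes that fold and move the receptors, Hsp90b1, Unc93b1, Cnpy3 and Slc15a4 had a peak in both cell types. Most of their means lay above 1000, where between 66.9% and 89.0% of genes in a band had a peak. Hsp90b1, the chaperone gp96 that folds Toll-like receptors, had 9 regions in 6 of 6 Lin- libraries and 4 in 4 of 4 CD11b+ libraries, at 19368 and 8602 normalized counts. Unc93b1, which carries the endosomal receptors out of the endoplasmic reticulum, had 5 regions in 4 of 6 Lin- and 8 in 4 of 4 CD11b+ libraries, at 8951 and 11885. Cnpy3, a co-chaperone of Hsp90b1, had 2 regions in 4 of 6 Lin- and 2 in 1 of 4 CD11b+ libraries, at 3024 and 2336. Slc15a4, an endolysosomal transporter needed for signaling by endosomal receptors, had the most regions of the list in Lin- cells, 10 in 6 of 6 libraries, beside 1 in 1 of 4 CD11b+ libraries, at 1842 and 973.

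Among the proximal adaptors, Tirap, which bridges Tlr2 and Tlr4 to their signaling complex, had 0 regions in Lin- cells and 2 in 3 of 4 CD11b+ libraries, at 512 and 705. Ticam1, the TRIF adaptor of Tlr3 and Tlr4, had 0 and 1 region in 1 of 4 libraries, at 655 and 510. Ticam2, which links Tlr4 to TRIF, had 1 region in 1 of 6 and 2 in 2 of 4 libraries, at 550 and 408. Further down, Ikbke, an interferon-pathway kinase, had the most regions in CD11b+ cells, with 10 in 4 of 4 libraries beside 3 in 3 of 6 Lin- libraries. Ikbkb, the catalytic kinase that marks the NF-kB inhibitor for degradation, had 7 regions in 4 of 4 CD11b+ and 6 in 5 of 6 Lin- libraries. Tab2, an adaptor of the kinase Map3k7, and Nfkbia, the NF-kB inhibitor, tied with it at 6 regions in Lin- cells, and had 5 each in CD11b+ cells.

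**Figure D5:**
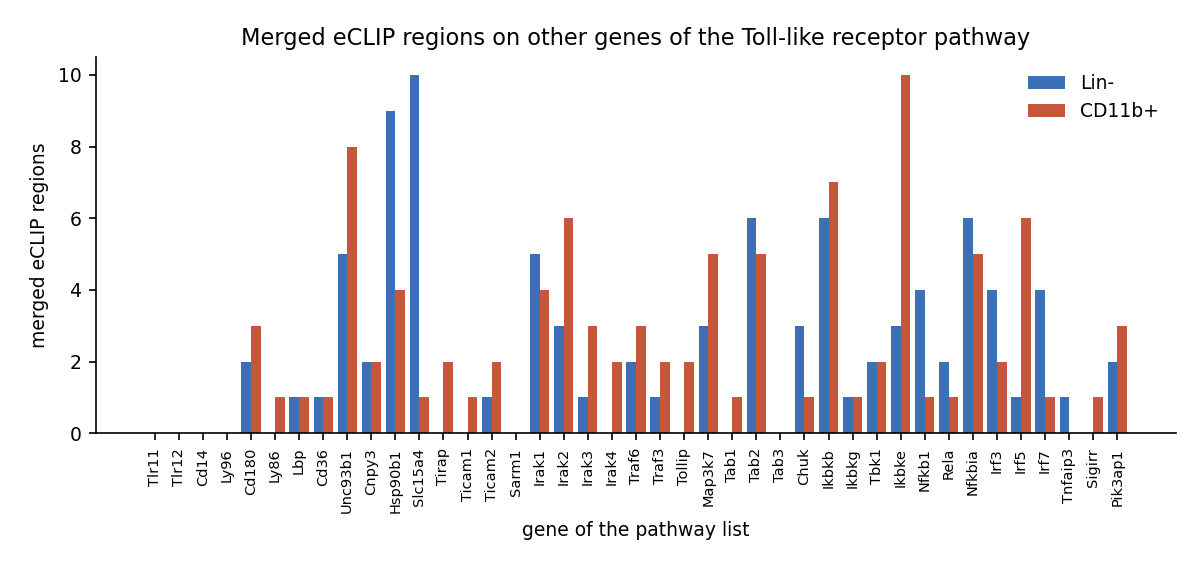
Merged IGF2BP3 eCLIP regions (vertical axis, count) on the 41 other genes of the Toll-like receptor pathway (horizontal axis) in Lin- and CD11b+ cells. Slc15a4 is highest in Lin- and Ikbke in CD11b+ cells, both at 10 regions, and Cd14 and Ly96 are at 0 in both.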

How the data were processed

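RNA-seq tables held, per gene, a mean normalized count that the authors made with DESeq2 over 6 libraries of a cell type, a deposited signal with no value per library. Per the labels, reads were aligned to mm10, with STAR 2.5.3a and Bowtie2 among the tools. The tables' other columns hold the authors' fold changes, errors, statistics, p-values and marks, and were not used. eCLIP peaks were deposited as CLIPper calls per library with a value below 0.05, read here as CLIPper's p, before and after removal of peaks overlapping smInput. Starts were written counted from 1.

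Peaks were assigned by the gene ID in their name, overlapping peaks of a gene were merged across the libraries of a cell type, and regions were placed in GENCODE M21 (GRCm38). Python 3.11.15 and SciPy 1.17.1 were used. No significance test was made. Merging and placing were tested on simulated data. The named pathway genes were the 3 with most regions per cell type (with ties) plus accessory proteins and proximal adaptors, and all 10 receptors. The members and lists were chosen with earlier results of these data known. Shares within the receptors' range of means and span were added after seeing the data.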

Additional observations from a re-analysis of the deposited data

Results flagged for a closer look

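Of 10 sets of 4 or 6 eCLIP libraries with any spread, 3 had a library far from the others. About 1 in 20 is so marked by chance in continuous values, a rate that does not apply to counts of 0, 1 and 2. In CD11b+ cells, Tlr2 had 1 peak in library 1 and Tlr7 had 2 peaks in library 1, against 0 in the other 3 libraries. Tlr1 had 0 peaks in library 3 and 1 in each of the other 3. With counts this small, any library that differs from 3 equal ones is marked in this way.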

How the results depend on the processing

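In Lin- cells the receptors had 0 peaks and 0 regions in the main run. The lists before the smInput filter and assignment by position could have added peaks, and both also gave 0. The other alternatives can only remove or join peaks, so their 0 was fixed in advance and says nothing further. In CD11b+ cells the main counts were 5 receptors and 8 regions, with 100% of region centres in introns and 25% of regions holding CACACA or ACACAC. With a region required in at least 2 libraries these were 1 receptor, 1 region and 100% with the letters. At a deposited value below 0.001 there were 2 receptors and 3 regions. Leaving out each CD11b+ library in turn gave 3 to 5 receptors, 3 to 8 regions and 14.3% to 66.7% with the letters, the lowest counts without library 1 and the lowest share without library 2. Biological libraries alone, the lists before the smInput filter, assignment by position and merging across gaps of up to 50 bases left the counts within 1.5 times. Percentiles were lower than the main ones for all 20 levels per kilobase of exon, by 1.98 to 12.1 points, and for all 19 levels ranked among genes with a mean of at least 10, by 7.71 to 35.5 points. No paired analysis was possible because the results come from no test. The RNA-seq tables hold no value per library, and in the peak lists each eCLIP library was set beside its own smInput, which held 0 receptor peaks. The peak lists hold only called peaks, and read depth under them was unknown, so a receptor without a peak was not shown to be unbound.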
